A study of Mus musculus with 12 samples.

Results

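Oxidative phosphorylation is carried out by protein complexes whose subunits are encoded by 2 genomes, and the transcripts of both were described here in Myc-CaP, a cell line from a prostate tumour of a mouse carrying a Myc transgene. Members were chosen by gene symbol alone. The nuclear members were the rows of the count table whose symbol starts with Nduf, Uqcr, Cox4, Cox5, Cox6, Cox7, Cox8 or Atp5, and the mitochondrial members those starting with mt-Nd, mt-Co, mt-Cyt or mt-Atp, without pseudogenes. This gave 93 nuclear and 13 mitochondrial members, 106 of the 55216 rows. After the filter on low counts 81 nuclear and 7 mitochondrial members were tested, among 13177 genes.

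RNA-seq of poly(A) RNA was performed on 12 libraries in 6 groups of 2. The cells, of the FVB/NJ strain, were left untreated (Ctrl) or were treated for 48 h with interferon γ (IFNγ) at 200 pg (IFN200) or 2000 pg (IFN2000), for which the labels give no volume. Others received the DNA-crosslinking platinum drug oxaliplatin at 2 μM (Oxali), or that dose together with the lower (Combo200) or the higher (Combo2000) IFNγ dose. Groups follow the sample titles. In the 6 libraries of single treatments the agent field disagrees with the title: it reads Oxali in the pair titled IFN200, IFNγ 200 pg in the pair titled IFN2000 and IFNγ 2000 pg in the pair titled Oxali. Every direction given below for IFN200, IFN2000 and Oxali therefore belongs to the libraries with that title. A single cell line was used, and nothing in the labels says whether the libraries of a group came from separate cultures, so the p-values measure only the spread between these libraries.

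The respiratory chain passes electrons from NADH and succinate to oxygen and pumps protons across the inner mitochondrial membrane. Complex I (NADH dehydrogenase, Nduf and mt-Nd genes), complex III (Uqcr genes and mt-Cytb) and complex IV (cytochrome c oxidase, Cox and mt-Co genes) do the pumping, and ATP synthase (Atp5 and mt-Atp genes) uses the gradient to make ATP. Complex I holds a catalytic core, of which part is encoded in mitochondrial DNA and part in the nucleus, wrapped by nuclear accessory subunits. Mitochondrial genes are transcribed as long precursors from the 2 strands of the circular genome and cut into single transcripts, and mt-Nd6 is the sole protein-coding gene on the strand opposite to the others.

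Library totals ranged from 18749975 to 25931516 counts. Nuclear members took 1.08% to 1.33% and mitochondrial members 0.548% to 0.937% of a library. Of the line's markers, Hoxb13, Myc and Krt8 were present in every library, but the epithelial marker Epcam had 0 counts in all 12, and Krt18 and Cdh1 at most 6. Some libraries, 3 in all, stood apart. The summed counts of 8 T cell markers were 172 in IFN2000 replicate 2 and 3 to 43 elsewhere. Those of 12 heart muscle markers were 224 in IFN200 replicate 1, 15 to 28 in the other libraries without Oxali and 73 to 129 with it. In the libraries with Oxali these counts were nearly all of 1 gene, Tnnt2 (68 to 125), and each of the other 11 markers had 0 to 4. The mitochondrial ribosomal RNA mt-Rnr2 had 9106 counts in Oxali replicate 1 and 2943 in its partner. Results that changed when these 3 libraries were set aside together are given with both values. That setting leaves 1 library each in IFN2000, IFN200 and Oxali, so its counts of calls rest on single libraries in those groups.

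Of the mitochondrial members 6, mt-Co2, mt-Atp8, mt-Atp6, mt-Co3, mt-Nd3 and mt-Nd4l, had 0 counts in all 12 libraries, although mt-Nd1, mt-Co1 and mt-Cytb had 21303 to 72879. The 6 lie side by side on the mitochondrial genome (chrM:7013-10173, GRCm38). A stretch of chromosome 1 (chr1:24611535-24616197) holds a nuclear copy of that region, annotated as 7 pseudogenes. Of all 50-base windows of the mt-Co2 transcript, 99.5% also occur in a pseudogene of that copy, and the share was 99.5% for mt-Atp6, 99.9% for mt-Co3, 98.0% for mt-Nd3 and 98.8% for mt-Nd4l. mt-Atp8 shares no window with a transcript annotated there, but 21.1% of its bases lie within mt-Atp6 on the same strand. The pseudogenes themselves had 0 to 6 counts, apart from Gm28438, the copy of mt-Nd3, with 7 to 43. The first 60 bases of mt-Co2 are shown because every 50-base window in them has such a copy (chrM:7013-7072, plus strand):
mt-Co2: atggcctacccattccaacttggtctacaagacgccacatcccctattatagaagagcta
A count of 0 allows up to 3 counts a library, 0.111 to 0.167 CPM (counts adjusted to equal library sizes), but this covers counting error only. How the counting treated reads with several matches is not stated in the sources used here, so a 0 for these 6 says nothing about their transcription. mt-Nd4 shares 62.2% and mt-Co1 28.7% of their windows with the same copy, so part of their reads could have been treated likewise. mt-Nd1, mt-Nd2, mt-Nd5, mt-Nd6 and mt-Cytb share none with it. Counting every other gene, mt-Co1 shares 51.1%, mt-Nd2 8.19% and mt-Nd5 7.61% of their windows.

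Of the nuclear members, 12 were not tested. Of these, 11 are tissue isoforms or gene copies with few counts. Cox4i2 (lung and hypoxia form), Cox6a2 (heart and muscle form), Cox6b2 and Cox7b2 (testis forms) and Ndufa4l2 were at 0 to 0.191 CPM in each library, and Cox8b, Cox8c, Cox6c2, Ndufa11b, Ndufb4c and Ndufs6b had 0 to 3 counts. Ndufs5, a complex I subunit that is not a tissue isoform, had 0 to 3 counts, and 31.1% of its windows are shared with another gene, BC002163. Among the 81 tested, 17 share over 20% of their windows with another gene and 15 overlap another gene's exons over more than 10% of their length, so the levels of these members are less certain. Atp5g2 and Atp5l share most, with 87.4% and 84.8% of their windows, and Atp5l lay at just 1.31 to 3.12 CPM. Members named below are among them by windows: Cox7c (53.0%), Ndufs3 (39.7%), Cox5a (32.0%), Ndufa13 (28.5%), Ndufa12 (26.2%), Cox5b (25.9%), Uqcrc2 (24.8%) and Ndufb9 (23.4%). Cox4i1 is among them by exons (20.1%).

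Compared per length, the highest levels in Ctrl were mitochondrial. They were 1586 ± 8.0 RPKM (CPM divided by transcript length in kilobases, SD, n = 2) for mt-Co1, 1436 ± 19 for mt-Nd1 and 1411 ± 19 for mt-Cytb. The leading nuclear members were Atp5b and Atp5a1, the catalytic β and the α subunit of ATP synthase, at 1164 ± 4.6 and 669 ± 3.3 RPKM. Cox4i1, a complex IV subunit, followed at 519.6 RPKM. Levels within complexes were unequal, since complex III ran from 101 RPKM (Uqcrq) to 363 RPKM (Uqcrh), and the assembly factors Ndufaf3 and Ndufaf1 lay at 5.41 and 7.88 RPKM. Levels per length depend on the transcript chosen for each gene, of 1521 bases for Uqcrq and 547 for Uqcrh.

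The first question was how the nuclear members differed with Oxali, which could be asked 3 times in libraries that are not shared: Oxali against Ctrl, Combo200 against IFN200 and Combo2000 against IFN2000. In Oxali against Ctrl, 13 of 81 nuclear members were called higher and 45 lower (edgeR quasi-likelihood test, adjusted p under 0.05), with a median log2 fold change of -0.18. Over all genes 34.8% were called higher and 32.8% lower, with a median of 0.02. In Combo200 against IFN200 the counts were 21 higher and 37 lower, beside 36.5% and 33.5% of all genes. In Combo2000 against IFN2000 they were 12 higher and 46 lower, beside 38.5% and 33.8%. In all 3 comparisons 11 nuclear members were called higher and 36 lower, where 29.6% and 26.9% of all genes were. In 10 nuclear members all 6 libraries with Oxali lay above all 6 without it and in 35 all lay below, beside 31.8% and 28.9% of all genes. These are levels relative to the rest of a library. In bulk RNA, a smaller share of cells with a transcript and less of it per cell cannot be told apart.

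The excess of lower over higher members depended on how length and base composition were handled. The transcripts of nuclear members are short, with a median of 835 bases against 2749 for all genes tested. Libraries with Oxali had slightly less signal in short transcripts relative to Ctrl (Spearman correlation of log2 ratio with length 0.058 to 0.139 over 9791 genes). Without Oxali, the pair titled IFN200 stood at 0.244 and 0.132 and the pair titled IFN2000 at -0.52 and -0.28. The trend was thus not particular to Oxali, and it differed between the 3 comparisons. With a correction for length and GC content the counts became 28 higher and 36 lower in Oxali against Ctrl, 32 and 33 in Combo200 against IFN200, and 32 and 34 in Combo2000 against IFN2000. All 11 members called higher in the 3 comparisons and 30 of the 36 called lower were called the same way in all 3 after the correction. Scaling by library totals alone, which moved the median of all genes up by 0.13, gave 18 higher and 33 lower in Oxali against Ctrl. The nuclear median turned positive in Combo200 against IFN200, from -0.062 to 0.054 under library totals and 0.026 under the correction, and in Combo2000 against IFN2000, from -0.17 to 0.020 under the correction.

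**Figure D1:**
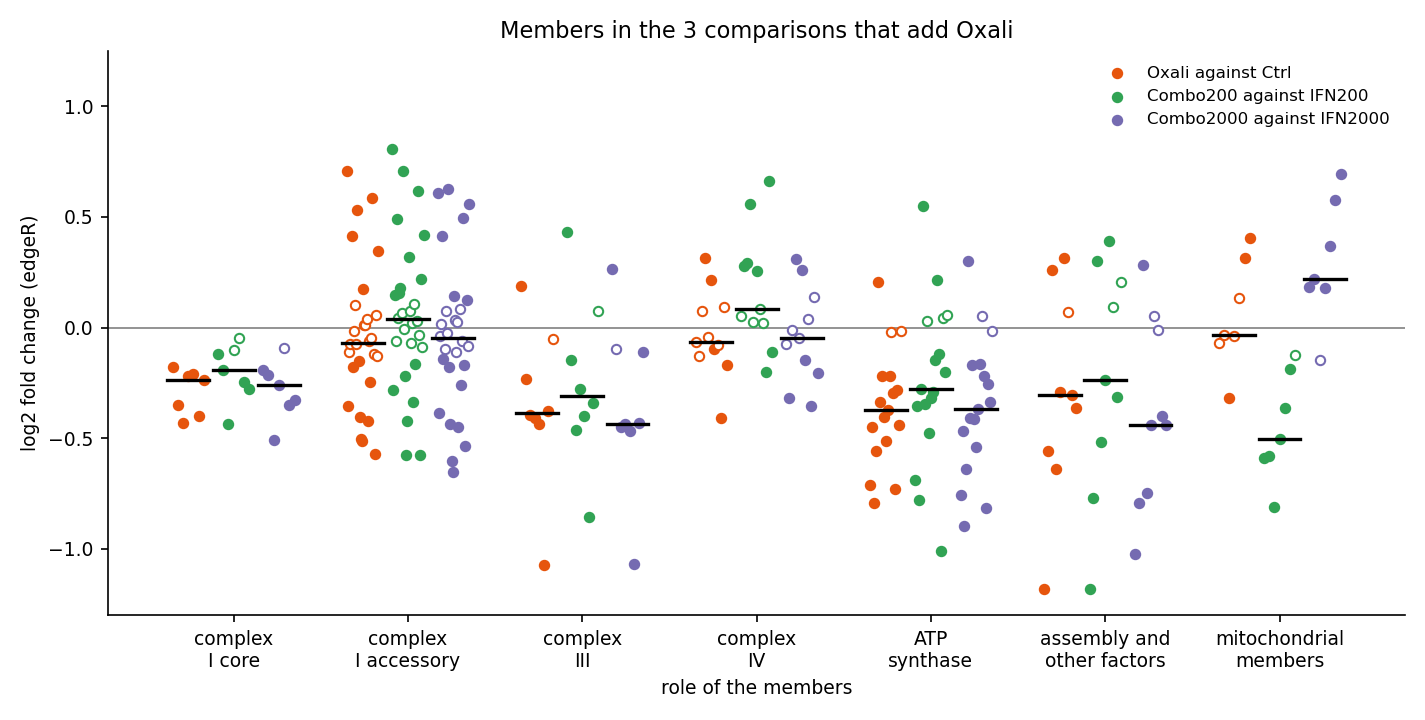
Log2 fold change of each tested member (y axis) by role (x axis) in the 3 comparisons that add Oxali. Filled points passed the test at adjusted p under 0.05, open points did not, and black bars are medians. The tissue isoform Cox7a1 (0.78 in Oxali against Ctrl) is not drawn. Nuclear core subunits of complex I lie below 0 in every comparison, whereas the mitochondrial medians are -0.50 in Combo200 against IFN200 and 0.22 in Combo2000 against IFN2000.

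Roles differed in their make-up of higher and lower members. Of all genes, 31.8% had the 6 libraries with Oxali all above the 6 without and 28.9% all below, which applies to each gene below. All 7 nuclear core subunits of complex I were called lower in Oxali against Ctrl, and 5 and 6 of them in the other pairs. Over all genes 32.8%, 33.5% and 33.8% were lower. The largest fall among them was Ndufs3, a subunit of the arm that reaches into the matrix. Its level was 59.8 and 59.4 CPM in Ctrl, 58.4 and 56.4 under IFN200, 63.9 and 63.1 under IFN2000, 43.8 and 44.6 under Oxali, 42.7 and 42.4 under Combo200 and 43 and 46.3 under Combo2000. All 6 libraries with Oxali lay below all 6 without it, and the log2 fold change was -0.43 ± 0.048 (SE) in Oxali against Ctrl (adjusted p = 1.52e-07), -0.43 in Combo200 against IFN200 and -0.51 in Combo2000 against IFN2000. Ndufv1, which carries the NADH-binding site, changed by -0.40, -0.25 and -0.35. After the length and GC correction 6 of the 7 core subunits were still called lower in Oxali against Ctrl and none higher.

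Of the 28 accessory subunits of complex I, 6 were higher and 9 lower in Oxali against Ctrl (21.4% and 32.1%, beside 34.8% and 32.8% of all genes). Ndufa1, a small X-linked subunit needed for assembly of the membrane arm, had the largest rise, and its levels were 38.3 and 41.9 CPM in Ctrl, 39.5 and 42.1 under IFN200, 44.6 and 44.2 under IFN2000, 65.4 and 65.6 under Oxali, 69.6 and 73 under Combo200 and 67.8 and 67.5 under Combo2000. Every library with Oxali lay above every library without, and the log2 fold changes were 0.71 ± 0.052 (adjusted p = 3.45e-10), 0.81 and 0.61 in the 3 pairs. Ndufb9, Ndufa7 and Ndufa13, which like the other members given by fold change alone were named after their values were seen, rose as well, by 0.58, 0.53 and 0.41 on the log2 scale in Oxali against Ctrl.

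Ndufc2 showed the opposite pattern and was 84.4 and 81.6 CPM in Ctrl, 82.5 and 83.3 under IFN200, 85.7 and 79.6 under IFN2000, 56.4 and 55.4 under Oxali, 53.8 and 57.5 under Combo200 and 57.5 and 56.5 under Combo2000. No library with Oxali reached the lowest of those without it, and the log2 fold change was -0.57 ± 0.048 in Oxali against Ctrl (adjusted p = 2.72e-09). Ndufb10 and Ndufab1, the mitochondrial acyl carrier protein, were at -0.51 and -0.50. With the length and GC correction the accessory subunits turned to 12 higher and 7 lower, so the direction of the group, unlike that of the members named here, depended on the correction.

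Complex III had 6 of 8 members called lower and 1 higher in each of the 3 comparisons. Over all genes 32.8% to 33.8% were lower and 34.8% to 38.5% higher. Uqcrfs1, the Rieske iron-sulfur protein that hands electrons to cytochrome c1, fell most. Levels were 205 and 195 CPM in Ctrl, 194 and 196 under IFN200, 217 and 213 under IFN2000, 99.1 and 90.4 under Oxali, 105 and 111 under Combo200 and 102 and 103 under Combo2000. The groups with and without Oxali did not overlap. The log2 fold changes were -1.07 ± 0.046 (adjusted p = 1.13e-13), -0.85 ± 0.045 and -1.07 ± 0.045. The structural core proteins Uqcrc1 and Uqcrc2 changed by -0.41 and -0.44 in Oxali against Ctrl, and Uqcrh, a hinge protein at the cytochrome c1 side, by -0.38. Uqcr10, a small membrane subunit, was the exception, at 112 to 128 CPM without Oxali and 134 to 156 CPM with it, and its log2 fold change was 0.19 ± 0.044 (adjusted p = 0.000971).

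Complex IV had the smallest share of called members of the 4 complexes in Oxali against Ctrl. In Oxali against Ctrl 2 of 11 nuclear subunits were higher and 3 lower, in Combo200 against IFN200 5 and 2, and with the length and GC correction 8 and 1. Over all genes, without the correction, 34.8% and 32.8% were called in Oxali against Ctrl and 36.5% and 33.5% in Combo200 against IFN200. Cox6a1, the general form of a subunit that also has a muscle form, ranged from 198 to 254 CPM without Oxali to 272 to 312 CPM with it, with a log2 fold change of 0.31 ± 0.051 (adjusted p = 1.97e-05). Cox7c, a small membrane subunit, lay at 54.2 to 62.7 CPM without and 44.5 to 51.4 CPM with Oxali, at -0.41 ± 0.064 (adjusted p = 1.24e-05), but it was no longer called lower in all 3 comparisons after the length and GC correction. Cox4i1, the most abundant nuclear subunit of the complex per length, had 389.9 to 436 CPM without and 369 to 422 CPM with Oxali, overlapping ranges, and its change of -0.07 ± 0.044 did not pass the test (adjusted p = 0.183). Its sign turned positive under library totals alone (0.059) and under the length and GC correction (0.083).

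Cox7a1, the heart and muscle form of another subunit, was the sole tissue isoform with enough counts to test, at 1.2 to 1.87 CPM without Oxali and 1.85 to 2.77 CPM with it. The ranges overlapped slightly, and the log2 fold change was 0.78 ± 0.26 in Oxali against Ctrl (adjusted p = 0.0121) and 0.46 ± 0.25 in Combo2000 against IFN2000 (adjusted p = 0.104). Without Ctrl replicate 2 the first value was 0.59 and without Oxali replicate 2 it was 0.62, and neither passed the test. Of the 12 heart muscle markers, Tnnt2 was also higher with Oxali (68 to 125 counts, against 15 to 47 without) and the other 11 had at most 4 counts with it, and their part in the level of Cox7a1 was not tested.

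In ATP synthase 14 of 17 nuclear members were called lower and 1 higher in Oxali against Ctrl (beside 32.8% and 34.8% of all genes). Both members of the catalytic ring were among them. Atp5a1, the α subunit, was 1659.9 and 1649 CPM in Ctrl, 1635 and 1644 under IFN200, 1781 and 1721 under IFN2000, 1019 and 1002 under Oxali, 1001 and 1036 under Combo200 and 1009.7 and 1061 under Combo2000. Atp5b, the β subunit, was 2237 and 2224 CPM in Ctrl, 2126 and 2169 under IFN200, 2379 and 2303 under IFN2000, 1687 and 1580.3 under Oxali, 1651 and 1709.8 under Combo200 and 1654 and 1737 under Combo2000. In both, the libraries with Oxali were all below those without, with log2 fold changes of -0.71 ± 0.032 (adjusted p = 2.05e-13) and -0.45 ± 0.034 (adjusted p = 4.8e-10). Atp5c1, the γ subunit that turns inside the ring, fell furthest among the members of this role with a mean of at least 1 CPM.

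Atp5c1 levels were 393 and 409 CPM in Ctrl, 399.9 and 398 under IFN200, 456 and 427 under IFN2000, 232 and 231 under Oxali, 229 and 237 under Combo200 and 232 and 243 under Combo2000. Its log2 fold changes of -0.79 ± 0.042 (adjusted p = 1.93e-12), -0.78 and -0.90 were close to each other in the 3 library pairs. Atp5e, the small ε subunit at the foot of the same stalk, went the other way, at 81.1 and 79.5 CPM in Ctrl, 69 and 72.3 under IFN200, 78.5 and 74.5 under IFN2000, 95.5 and 89.3 under Oxali, 101 and 106 under Combo200 and 93 and 95.5 under Combo2000. Its libraries with Oxali were all above those without, and the log2 fold change was 0.20 ± 0.047 (adjusted p = 0.000768) in Oxali against Ctrl and 0.55 ± 0.046 in Combo200 against IFN200. With the length and GC correction the role had 12 lower and 3 higher.

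Factors that build the complexes rather than belong to them were 2 higher and 6 lower of 9 in Oxali against Ctrl. Over all genes 34.8% were higher and 32.8% lower. Cox7a2l joins complex III and complex IV into supercomplexes and is itself a small protein of the Cox7a family. It had the largest fall of all members in Oxali against Ctrl and Combo200 against IFN200, and Uqcrfs1 had it in Combo2000 against IFN2000. Cox7a2l levels were 116 and 110.0 CPM in Ctrl, 118 and 114 under IFN200, 103 and 98.6 under IFN2000, 50.8 and 49 under Oxali, 49.4 and 52.9 under Combo200 and 48.5 and 51.1 under Combo2000. The libraries with Oxali were all below those without, where Ctrl averaged 113 ± 4.3 CPM (SD, n = 2), and the log2 fold changes were -1.18 ± 0.049 (adjusted p = 7.03e-14), -1.18 ± 0.048 and -1.02 ± 0.048. Ndufaf5, which modifies a complex I core subunit during assembly, rose by 0.31 ± 0.082 in Oxali against Ctrl (adjusted p = 0.00218) but was at 0.05 in Combo2000 against IFN2000 (adjusted p = 0.535). Ndufaf3 and Ndufaf1, assembly factors of complex I, were lower, at -0.64 and -0.56.

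**Figure D2:**
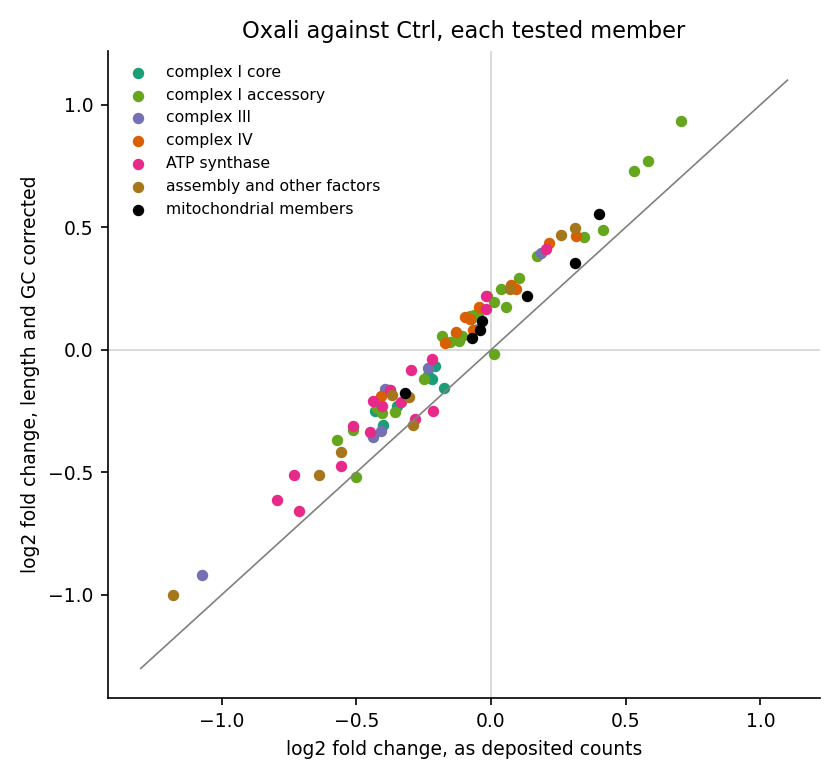
Log2 fold change of each tested member in Oxali against Ctrl from the deposited counts (x axis) and after correction for transcript length and GC content (y axis), coloured by role, with the grey line marking equal values. Most nuclear members lie above the line, and the median moved from -0.18 to -0.04. Cox7a2l and Uqcrfs1 keep the lowest and Ndufa1 the highest values of the members drawn.

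Promoters were compared because nuclear members share known upstream regulators: NRF1, the ETS factor GABPA, YY1 and MYC bind sites near many such genes. The RefSeq promoter table (GRCm38.p6, 250 bases before to 50 after each start) held 72 of the 93 nuclear members by symbol, 68 of them tested. Exact matches on either strand were counted. The NRF1 core GCATGCGC occurred in 16.2% of the 68 and in 3.05% of all 27025 genes of the table, the ETS core CCGGAAG in 25.0% and 9.93%, the YY1 core AAGATGGC in 14.7% and 3.19%, and the E-box CACGTG, which MYC among others binds, in 7.35% and 8.09%. The fold changes in Oxali against Ctrl were set beside the motifs as a description, with no test. The median log2 fold change was -0.23 with and -0.17 without the NRF1 core, -0.25 and -0.13 for the ETS core, -0.12 and -0.21 for the YY1 core, and -0.40 and -0.15 for the E-box, which 5 members held. A match describes letters in a window and not a bound site.

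The 120 bases before the start are shown for 2 members that rose and 2 that fell in all 3 comparisons, chosen after their values were seen because each holds a motif there (in capitals). Atp5e (chr2:174464102-174464221, minus strand) and Uqcrh (chr4:116075071-116075190, minus strand) carry the ETS core read on the other strand, beginning 102 and 10 bases before the start. Ndufaf4 (chr4:24897963-24898082, plus strand) carries overlapping NRF1 cores and Ndufa7 (chr17:33824452-33824571, plus strand) an E-box 72 bases before the start:
Atp5e: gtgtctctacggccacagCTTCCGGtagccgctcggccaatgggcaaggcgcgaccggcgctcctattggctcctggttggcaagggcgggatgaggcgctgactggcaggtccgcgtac
Uqcrh: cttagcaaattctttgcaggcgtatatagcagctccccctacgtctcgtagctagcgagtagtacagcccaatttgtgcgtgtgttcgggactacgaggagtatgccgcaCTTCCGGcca
Ndufaf4: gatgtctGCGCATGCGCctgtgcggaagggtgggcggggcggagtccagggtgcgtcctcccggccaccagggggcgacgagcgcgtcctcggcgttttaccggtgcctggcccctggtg
Ndufa7: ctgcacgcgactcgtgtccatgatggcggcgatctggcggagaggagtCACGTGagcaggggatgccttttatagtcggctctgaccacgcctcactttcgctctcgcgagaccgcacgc
The same ETS core thus preceded a member that rose, Atp5e (0.20), and one that fell, Uqcrh (-0.38).

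Genes for regulators were themselves read from a list of 10, of which 9 were tested. It holds Nrf1, Gabpa and Yy1 but not Myc. In Oxali against Ctrl 2 were higher and 6 lower, beside 34.8% and 32.8% of all genes. Ppargc1a, a coactivator of mitochondrial gene programmes, rose in the 3 pairs, and its level was 46.6 to 56.7 CPM in the 6 libraries without Oxali and 172 to 195 CPM in the 6 with it. Nrf1 and Gabpa fell, from 66.3 to 74.7 to 41.2 to 42.5 CPM and from 107 to 111 to 65.5 to 71.7 CPM over the same libraries. None of these ranges overlapped, as in 31.8% of all genes upward and 28.9% downward. The log2 fold changes in Oxali against Ctrl were 1.80 ± 0.058, -0.70 ± 0.046 and -0.64 ± 0.04 (adjusted p = 1.69e-15, 7.06e-11 and 3.14e-11). Yy1 moved less, from 176 to 185 CPM without Oxali to 159 to 168 CPM with it.

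Other genes of mitochondrial energy metabolism outside the name rule were read from lists, beside 34.8% higher and 32.8% lower over all genes. A list of complex II, cytochrome c and cytochrome c1 had 0 higher and 5 lower of 6 in Oxali against Ctrl. It was led by Sdhd, a membrane anchor of succinate dehydrogenase (-0.66), and Cyc1, cytochrome c1 (-0.57). Cyc1 is a subunit of complex III that the name rule left out, so it is not among the complex III members counted above. The tricarboxylic acid cycle had 0 higher and 17 lower of 18, with a median of -0.52. Mitochondrial ribosomal proteins had 5 higher and 57 lower of 77, and factors that process mitochondrial RNA 1 and 13 of 19. Assembly factors named outside the rule had 9 higher and 9 lower of 34 (26.5% each). The machinery that transcribes and copies mitochondrial DNA had 6 higher and 6 lower of 18 (33.3% each), close to the shares over all genes: the polymerase gene Polrmt fell (-0.59, adjusted p = 3.16e-09), and Tfam, which packages the genome and starts transcription, was at 0.10 (adjusted p = 0.0519).

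The mitochondrial members were read in the same 3 comparisons, beside the shares over all genes given for the nuclear members. In Oxali against Ctrl 2 of 7 were called higher and 1 lower, with a median log2 fold change of -0.03 and values from -0.32 to 0.40. In Combo200 against IFN200 0 were higher and 6 lower (median -0.50), and in Combo2000 against IFN2000 6 were higher and 0 lower (median 0.22). Of the 7, 0 were called the same way in all 3 comparisons by edgeR, and 0 had all 6 libraries with Oxali above or below the 6 without. The count of 3 in Oxali against Ctrl was 5 without Oxali replicate 2 and 6 with the 3 libraries set aside, and the count of 6 in Combo2000 against IFN2000 was 3 without Combo2000 replicate 2 and 3 by DESeq2.

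mt-Co1, the catalytic subunit of complex IV, had the highest level per length of the members in Ctrl. Its levels were 2459.7 and 2442 CPM in Ctrl, 3163 and 3126 under IFN200, 1818 and 2117 under IFN2000, 2109 and 2556 under Oxali, 2157 and 2028 under Combo200 and 2274 and 2197 under Combo2000. The pair titled IFN200 was highest and the pair titled IFN2000 contained the lowest library, and Oxali replicate 1 and Combo200 replicate 3 lay within the IFN2000 pair. The IFN200 pair was not highest in every member, since mt-Nd6 reached 391 CPM in Oxali replicate 2 against 326 and 327 in IFN200. The log2 fold changes of mt-Co1 were -0.07 ± 0.065 in Oxali against Ctrl (adjusted p = 0.338), -0.59 ± 0.065 in Combo200 against IFN200 (adjusted p = 1.11e-07) and 0.18 ± 0.065 in Combo2000 against IFN2000 (adjusted p = 0.0154). mt-Cytb, the mitochondrial subunit of complex III, gave -0.03, -0.58 and 0.22, and mt-Nd2 -0.04, -0.50 and 0.18. The first value of each of these 3 members turned positive, to at most 0.14, under library totals alone, with the length and GC correction, and with the 3 libraries set aside.

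The ratio of summed mitochondrial to summed nuclear counts needs no scaling between libraries, but it can carry a trend with transcript length. Median lengths were 835 bases for tested nuclear and 1144 for tested mitochondrial members. Level relative to Ctrl correlated with length at 0.24 and 0.13 (Spearman) in IFN200, -0.52 and -0.28 in IFN2000 and 0.10 and 0.14 in Oxali. The part of this trend in the ratio was not tested. The ratio was 0.598 and 0.601 in Ctrl, 0.789 and 0.775 under IFN200, 0.412 and 0.498 under IFN2000, 0.646 and 0.824 under Oxali, 0.649 and 0.594 under Combo200 and 0.690 and 0.632 under Combo2000. The pair titled IFN200 was above and the pair titled IFN2000 below every Ctrl library, and the 2 Oxali libraries differed from each other more than the Combo pairs did. On the log2 scale the ratio differed from its reference group by 0.28 in Oxali against Ctrl, -0.33 in Combo200 against IFN200 and 0.54 in Combo2000 against IFN2000, where partner libraries differed with an SD of 0.14. The ratio is given as a description, with no test. Without Oxali replicate 2 the first value was 0.11 and without Oxali replicate 1, the library with more mitochondrial ribosomal RNA, it was 0.46.

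**Figure D3:**
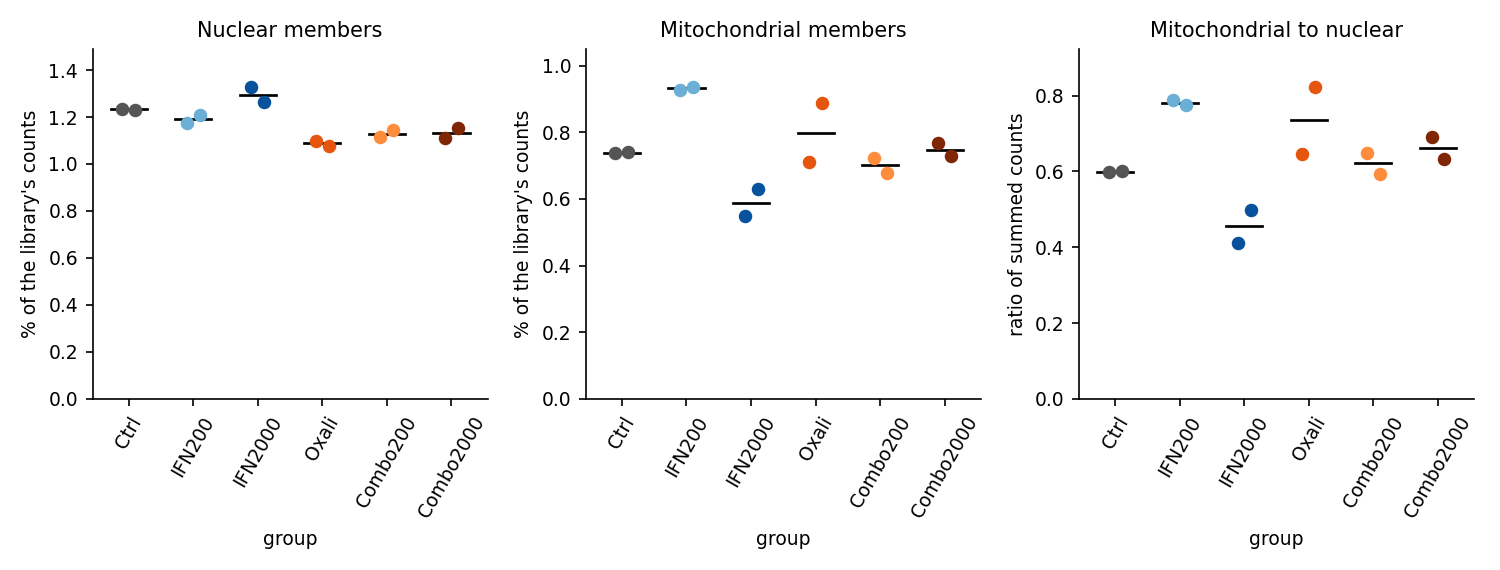
Share of each library's counts in the nuclear members (left) and the mitochondrial members (middle), in percent, and the ratio of the summed counts (right), by group on the x axis. Each point is a library and each black bar the mean of 2. Nuclear shares are at most 1.15% in the 6 libraries with Oxali and at least 1.18% without, whereas mitochondrial shares peak in IFN200 (up to 0.937%) and are lowest in IFN2000 (down to 0.548%).

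The make-up of the mitochondrial counts, in contrast, separated the libraries with Oxali from those without. Each member's share was taken of the summed counts of the 7 measured members, so that a common rise or fall cancels, a measure chosen after the fold changes were seen. mt-Nd1 made up 17.5% to 18.2% of mitochondrial counts in the 6 libraries without Oxali and 13.8% to 14.6% in the 6 with it. mt-Nd5 went from 12.7% to 13.0% without to 16.2% to 16.9% with Oxali, and mt-Nd6 from 3.19% to 3.45% to 4.33% to 4.64%. These 3 members are all subunits of complex I, as are 5 of the 7 measured members, and none of their ranges overlapped.

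mt-Nd4 was also higher, at 5.42% to 5.75% without and 6.12% to 6.29% with Oxali, and mt-Co1 was lower, at 31.7% to 32.7% and 30.3% to 31.3%. mt-Cytb (20.7% to 21.2% and 20.2% to 20.8%) and mt-Nd2 (6.98% to 7.44% and 6.97% to 7.32%) overlapped. An exact permutation test over libraries within each IFNγ dose, two-sided, gave p = 0.00926 for mt-Nd1, mt-Nd5, mt-Nd6, mt-Nd4 and mt-Co1, the smallest value its 216 arrangements allow (adjusted over the 7 members, p = 0.013). For mt-Cytb the permutation test gave p = 0.056 (adjusted p = 0.065) and for mt-Nd2 p = 0.37. The 7 shares of a library add up to a whole, so a rise of some members lowers the others. The p-values are thus not separate results, and the lower share of mt-Co1 need not be a fall of its own. As the measure was chosen after the fold changes of these libraries were seen, the p-values describe the pattern and are no fresh test of it. The differences with minus without Oxali were -3.57 percentage points for mt-Nd1, 3.40 for mt-Nd5 and 1.15 for mt-Nd6, larger than the SD within either set of 6, which was at most 0.321.

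**Figure D4:**
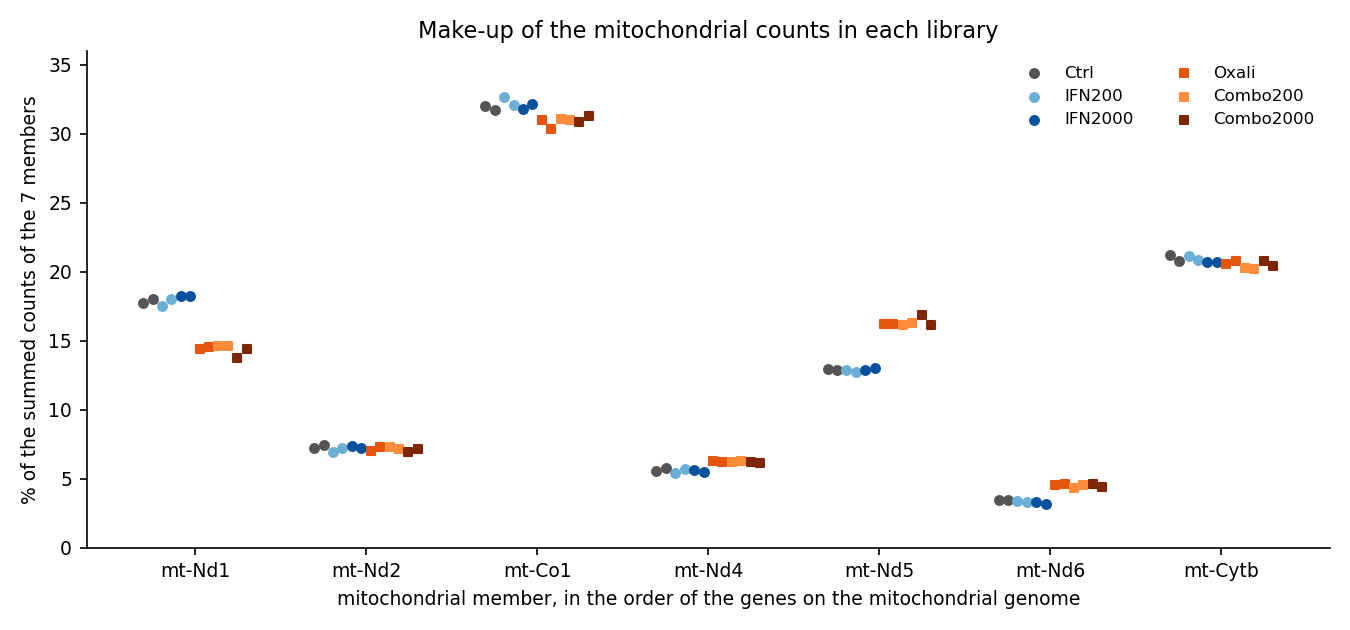
Share of each measured mitochondrial member in the summed counts of the 7 members (y axis, percent), with 1 point per library in group order, circles without and squares with Oxali. mt-Nd1 lies at 17.5% to 18.2% without and 13.8% to 14.6% with Oxali and mt-Nd5 at 12.7% to 13.0% and 16.2% to 16.9%, with no overlap, while mt-Nd2 lies between 6.97% and 7.44% throughout.

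The 2 ends of this pattern can be read as a ratio of counts. mt-Nd6 counts per mt-Nd1 count were 0.194 and 0.191 in Ctrl, 0.193 and 0.185 under IFN200, 0.183 and 0.175 under IFN2000, 0.315 and 0.319 under Oxali, 0.296 and 0.311 under Combo200 and 0.334 and 0.305 under Combo2000. All libraries with Oxali were above all without, and the Oxali replicates, which differed in their mitochondrial total, were close here. mt-Nd1 lies near the ribosomal RNA genes (chrM:2751-3707), mt-Nd5 and mt-Nd6 at the far end (chrM:11742-13565 and chrM:13552-14070), and mt-Cytb beyond them (chrM:14145-15288). mt-Nd5 and mt-Nd6 are read from opposite strands and share 14 bases (chrM:13552-13565), shown as the plus strand because reads over them could be given to either gene if the counting did not use strand:
mt-Nd5 and mt-Nd6 overlap: ttaatctcgagtaa
The kit was stranded, but whether the counting used strand is not stated in the sources used here, so antisense RNA across mt-Nd6 or mt-Nd5 cannot be told apart from their own transcripts. The light-strand transfer RNA mt-Tc, a gene outside the rule named after its values were seen, had 190 to 297 counts without and 440 to 691 with Oxali, whereas mt-Tp, another transfer RNA of that strand, had 28 to 63 without and 36 to 52 with it, although kits for messenger RNA recover transfer RNA poorly.

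IFNγ alone at 200 pg gave few calls among all genes, 15 higher and 0 lower of 13177. In IFN200 against Ctrl edgeR called 0 nuclear members higher and 0 lower, and DESeq2 called 0 as well, beside 0.114% and 0% of all genes, while 14 had an unadjusted p under 0.05. Among mitochondrial members mt-Co1 alone was called higher (0.36 ± 0.065, adjusted p = 0.0232), but the other 6 had nearly the same log2 values, from 0.29 to 0.34. The median of the 7 was 0.31 to 0.33 with any 1 library left out, but the count of calls changed, with 0 calls by DESeq2 or without either Ctrl library, and 7 when the 3 libraries that stood apart were set aside. Without IFN200 replicate 2 there was 1 nuclear call.

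In IFN2000 against Ctrl 10 nuclear members were called higher and 1 lower, beside 8.39% and 8.47% of all genes, while all 7 mitochondrial members were called lower (median -0.33). Cox5a and Cox5b, which sit together on the matrix side of complex IV, were among the largest nuclear rises with Ndufaf5. Cox5a levels were 91.1 and 93.9 CPM in Ctrl and 119 and 123 under IFN2000 and Cox5b levels 87.5 and 94.5 CPM in Ctrl and 110.0 and 111 under IFN2000. Both IFN2000 libraries were above both Ctrl libraries, with log2 fold changes of 0.39 ± 0.06 (adjusted p = 0.000205) and 0.28 ± 0.054 (adjusted p = 0.0017). Ndufaf5 rose by 0.28, and Cox7a2l was the nuclear member that fell, with a log2 fold change of -0.16 (adjusted p = 0.019), in the same direction as with Oxali but far less. Mitochondrial ribosomal proteins had 30 higher and 0 lower of 77 in this comparison. They are among the 181 genes of the other mitochondrial lists, of which 45 were called here, but 6 with the 3 libraries set aside, 6 without Ctrl replicate 1, 16 without Ctrl replicate 2, 3 without IFN2000 replicate 2 and 75 without IFN2000 replicate 3.

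The mitochondrial fall in IFN2000 was of like size in each member, from -0.29 for mt-Nd1 to -0.40 for mt-Nd6, and mt-Nd1 made up 18.2% of mitochondrial counts in each IFN2000 library, the upper end of the range of 17.5% to 18.2% over the 6 libraries without Oxali. Both libraries titled IFN2000 had relatively more signal in short transcripts than Ctrl (Spearman correlation with length -0.52 and -0.28), and IFN2000 replicate 2, which carried T cell markers, was the more extreme. The part of either in these calls was not tested beyond the correction and the exclusion. With the length and GC correction the nuclear count was 5 higher and 4 lower, and with the 3 libraries set aside 5 higher and 1 lower. The nuclear count of 11 was 1 without Ctrl replicate 1, where Cox5b, Ndufaf5 and Cox7a2l were no longer called, 4 without IFN2000 replicate 2 and 24 without IFN2000 replicate 3. The mitochondrial count of 7 was 2 without Ctrl replicate 1, 3 without Ctrl replicate 2, 2 without IFN2000 replicate 2 and 4 by DESeq2.

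Adding IFNγ to Oxali changed few members. In Combo200 against Oxali 5 nuclear members were higher and 0 lower (1.58% and 0.25% of all genes), namely Atp5k, Cox5a, Cox7a2, Uqcr10 and Uqcrfs1, and in Combo2000 against Oxali 5 were higher and 0 lower (3.37% and 0.987%), namely Atp5k, Cox5b, Ndufa12, Ndufs4 and Ndufv3. All were small, between 0.17 and 0.27 on the log2 scale. Uqcrfs1, for example, was 99.1 and 90.4 CPM under Oxali and 105 and 111 under Combo200, below the 205 and 195 in Ctrl. Of the mitochondrial members edgeR called 0 in either comparison (7 and 0 had an unadjusted p under 0.05, and DESeq2 called 0), but without Oxali replicate 1 it called 7 and 5, all lower. The nuclear counts of 5 and 5 were also unstable: DESeq2 called 1 and 1, leaving out Oxali replicate 2 left 0 and 1, and setting the 3 libraries aside gave 9 and 9.

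The test of whether the effect of Oxali differed with IFNγ 200 pg called 3 nuclear members higher and 0 lower, beside 0.562% and 0.137% of all genes, and 0 mitochondrial members higher and 6 lower. Cox8a, a small complex IV subunit, was the largest nuclear one, at 184 and 191 CPM in Ctrl, 133 and 163 under IFN200, 197 and 195 under IFN2000, 221 and 179 under Oxali, 232 and 235 under Combo200 and 224 and 207 under Combo2000. The pair titled IFN200 was the lowest, with IFN200 replicate 1, the library with heart muscle markers, below its partner. The interaction was 0.57 ± 0.11 (adjusted p = 0.0184) for Cox8a, 0.41 ± 0.086 (adjusted p = 0.0286) for Cox5a and 0.35 ± 0.066 (adjusted p = 0.013) for Atp5e. The calls, more than the sizes, depended on single libraries. With 1 library left out the interaction ran from 0.42 to 0.73 for Cox8a, 0.28 to 0.55 for Cox5a and 0.30 to 0.40 for Atp5e, and the mitochondrial median from -0.64 to -0.34. Without Ctrl replicate 1, Ctrl replicate 2, IFN200 replicate 1, Oxali replicate 2 or Combo200 replicate 3 there were 0 nuclear calls, and 0 mitochondrial calls as well, and DESeq2 called 0 mitochondrial members. At 2000 pg edgeR called 0 nuclear and 0 mitochondrial members, beside 2.12% higher and 0.6% lower of all genes. There 4 nuclear and 5 mitochondrial members had an unadjusted p under 0.05, and DESeq2 called 0.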

How the data were processed

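Poly(A) RNA was sequenced with a stranded kit by the authors, whose methods name alignment with STAR to GRCm38, a GENCODE annotation and gene counting with featureCounts. The submitters' processing notes list STAR 2.7.3a and RSEM 1.3.0. The deposited table holds whole-number counts per gene, not normalized, in 12 libraries, with no column of comparisons.

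Every gene was fitted in 1 model with a mean per group (edgeR 4.0.16, R 4.3.3), using TMM scaling, filterByExpr (minimum count 10) and the quasi-likelihood test, with p-values adjusted by Benjamini and Hochberg over 13177 genes and a threshold of 0.05. Levels are CPM on TMM-scaled library sizes, and levels per length use the length of 1 chosen transcript per gene of GENCODE M21 (RPKM). DESeq2 1.42.0, the test the authors name, was an alternative. The others were scalings, filters, a block for the replicate number, a fit to the compared groups, a length and GC correction and each library left out. The fit was tested on simulated counts.

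Groups came from sample titles. The members and gene lists were chosen with earlier results of these data known. Genes were named by rule: every mitochondrial member, the largest called rise and fall in each nuclear role in Oxali against Ctrl, up to 3 in each direction in IFN2000 against Ctrl and in each interaction, tissue isoforms with counts, the 3 leading levels per length and the regulators the text gives values for. Others were named after their values were seen. Replicate numbers did not pair the libraries. Mitochondrial shares and the 3 libraries set aside were alternatives chosen after seeing the data. No protein sequence was used here. Some marker genes are not reported here.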

Additional observations from a re-analysis of the deposited data

Results flagged for a closer look

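The interaction test of the edgeR fit called 9 members for a different effect of Oxali without IFNγ and with IFNγ at 200 pg. By DESeq2 the mitochondrial calls were lost. The difference, as a log2 value of Combo200 against IFN200 minus Oxali against Ctrl, was 0.35 for Atp5e, 0.41 for Cox5a and 0.57 for Cox8a. It was -0.52 for mt-Co1, -0.54 for mt-Cytb, -0.49 for mt-Nd1, -0.50 for mt-Nd4, -0.50 for mt-Nd5 and -0.53 for mt-Nd6. mt-Nd2, which was not called, stood close to these at -0.46. The 9 differences all involve the pair titled IFN200, in which replicate 1 carried heart muscle markers and whose agent field reads Oxali. Cox7a2l stood at 118 and 114 CPM in this pair and 116 and 110.0 in Ctrl, against 48.5 to 52.9 in the pair titled Oxali and both Combo groups. This measurement does not bear on which IFNγ dose a pair received. IFN200 replicate 1 also had relatively less signal in short transcripts than Ctrl (Spearman correlation with length 0.24). The transcripts of Atp5e, Cox8a and Cox5a are short (421, 550 and 645 bases). The part of the heart muscle markers or of transcript length in these differences was not tested. With 1 library left out the mitochondrial median difference ran from -0.64 to -0.34.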

How the results depend on the processing

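The totals of nuclear members called in either direction when Oxali was added stayed within 1.5 times in every alternative, although the split between higher and lower moved with the length and GC correction (28 higher and 36 lower against 13 and 45 in Oxali against Ctrl, and 32 and 34 against 12 and 46 in Combo2000 against IFN2000). The totals were 52 to 61 of 81 in Oxali against Ctrl, 50 to 58 in Combo200 against IFN200 and 53 to 64 in Combo2000 against IFN2000 when 1 library was left out.

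In nuclear members, IFN200 against Ctrl (0 calls) gave 1 with no filter and 1 when the fit held just the groups compared. IFN2000 against Ctrl (11) gave 17 with upper-quartile scaling and 6 with the 3 libraries set aside. Combo200 against Oxali (5) gave 2 with upper-quartile scaling, 9 with no filter, 1 with the length and GC correction, 9 with the 3 libraries set aside and 1 by DESeq2. Combo2000 against Oxali (5) gave 3, 9, 9 and 1 under upper-quartile scaling, no filter, the 3 libraries set aside and DESeq2. The interaction at 200 pg (3) gave 13 with no filter and 7 in the compared groups, and that at 2000 pg (0) gave 1 with the length and GC correction.

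In mitochondrial members, Oxali against Ctrl (3) gave 5 with no filter and 6 with the 3 libraries set aside, Combo2000 against IFN2000 (6) 3 by DESeq2, and IFN2000 against Ctrl (7) 4 by DESeq2. IFN200 against Ctrl (1) gave 7 with no filter, 0 with a mean of at least 50 counts, 4 with the length and GC correction, 7 with the 3 libraries set aside, 7 in the compared groups and 0 by DESeq2. Combo200 against Oxali (0) gave 7 with no filter, 1 with the correction and 7 with the 3 libraries set aside. Combo2000 against Oxali (0) gave 1 with no filter and 7 with the 3 libraries set aside. The interaction at 200 pg (6) gave 0 by DESeq2 and that at 2000 pg (0) gave 7 with no filter and 4 with the correction. Genes of the other mitochondrial lists in IFN2000 against Ctrl (45 of 181) gave 29 with the correction, 6 with the 3 libraries set aside, 29 in the compared groups and 22 by DESeq2. The cause of these changes was not tested.

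With the replicate number as a block the nuclear counts were 4 in IFN2000 against Ctrl, 0 in Combo200 against Oxali, 3 in Combo2000 against Oxali and 0 for the interaction at 200 pg, the mitochondrial count in IFN200 against Ctrl was 0, and the other lists had 9 in IFN2000 against Ctrl. The numbers did not pair the libraries, since 0 of 21 same-number correlations were over 0.1 (-0.046 to 0.045).

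Leaving out 1 library moved the nuclear calls from 0 to 1 in IFN200 against Ctrl (1 without IFN200 replicate 2), 1 to 24 in IFN2000 against Ctrl (without Ctrl replicate 1 and without IFN2000 replicate 3), 0 to 5 in Combo200 against Oxali, 1 to 7 in Combo2000 against Oxali, 0 to 6 for the interaction at 200 pg and 0 to 1 at 2000 pg. The mitochondrial calls ran from 3 to 5 in Oxali against Ctrl (5 without Oxali replicate 2), 3 to 7 in Combo2000 against IFN2000 (3 without Combo2000 replicate 2), 0 to 7 in IFN200 against Ctrl, 2 to 7 in IFN2000 against Ctrl, 0 to 7 in Combo200 against Oxali and 0 to 5 in Combo2000 against Oxali (both highest without Oxali replicate 1), 0 to 7 for the interaction at 200 pg and 0 to 7 at 2000 pg (7 without Oxali replicate 2). The other lists had 3 to 75 in IFN2000 against Ctrl (without IFN2000 replicate 2 and replicate 3). A group with 1 library left was assumed to vary like the others. The log2 ratio of mitochondrial to nuclear counts ran from 0.11 to 0.46 in Oxali against Ctrl, -0.41 to -0.057 in Combo200 against Oxali, -0.32 to 0.033 in Combo2000 against Oxali, -0.79 to -0.44 for the interaction at 200 pg and 0.086 to 0.44 at 2000 pg, with both ends from leaving out an Oxali library.

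Signs turned in small values. The nuclear median in Combo200 against IFN200 became 0.054 under library totals and 0.026 under the length and GC correction, and that in Combo2000 against IFN2000 0.020 under the correction. In Oxali against Ctrl the mitochondrial median (-0.03) became 0.019 with upper-quartile scaling, 0.093 under library totals, 0.12 under the correction, 0.13 without Oxali replicate 1 and 0.14 with the 3 libraries set aside. In the same order mt-Cytb became 0.019, 0.093, 0.12, 0.12 and 0.13, and mt-Nd2 0.013, 0.087, 0.079, 0.13 and 0.14. mt-Co1 became 0.056 under library totals, 0.049 under the correction, 0.060 without Oxali replicate 1 and 0.070 with the 3 libraries set aside. Cox4i1 became 0.059 under library totals and 0.083 under the correction, and mt-Nd4 -0.031 without Oxali replicate 2. With 1 library left out these values in Oxali against Ctrl ran from -0.21 to 0.13 for the mitochondrial median, -0.22 to 0.060 for mt-Co1, -0.21 to 0.12 for mt-Cytb, -0.24 to 0.13 for mt-Nd2 and -0.031 to 0.27 for mt-Nd4.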
